A study of Mus musculus with 6 samples.

Results

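The genes followed here encode 8 cathepsins (Ctsa, Ctsb, Ctsc, Ctsd, Ctsh, Ctsl, Ctss and Ctsz), the asparagine-specific protease legumain (Lgmn) and the secreted protease inhibitor cystatin C (Cst3). They were chosen by symbol, with earlier results of these data known, and all 10 were found among the 54532 genes of the count table. According to the methods, the libraries came from mouse CD8T cells taken from spleen. Beads carrying anti-CD3 and anti-CD28 activated these cells, which then spent 24 hr with thioglycolate-elicited peritoneal macrophages that IFN-γ (10 ng/mL, 12 hr) had stimulated. The macrophages of the control group (3 samples) had received no DB2313, and those of the DB2313 group (3 samples) had been treated with this inhibitor of the transcription factor Spi1, at 14 nM according to the methods. GEO's labels divide the samples in the same way but call the cocultured cells DC cells and the sequenced cells primary T cells, and which description holds for these libraries could not be settled here. In the control group Lyz2, a myeloid gene, was at 7702 CPM (counts relative to the TMM-scaled library size) and the CD8T cell gene Cd8a at 119 CPM. The strain, sex and age of the mice that gave the cells, and whether the 3 samples of a group were separate cultures, are not given in the sources used here, so the p-values measure only the spread between these samples.

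Cathepsins are the main proteases of the lysosome and of late endosomes. Most are papain-like cysteine proteases (Ctsb, Ctsc, Ctsh, Ctsl, Ctss and Ctsz here), whereas cathepsin D is an aspartic protease and cathepsin A a serine carboxypeptidase. In macrophages and dendritic cells they degrade proteins taken up from outside, cut the invariant chain from MHC class II molecules and trim Toll-like receptors, and cystatin C blocks the cysteine proteases among them as well as legumain.

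The libraries held 16611975 to 18596217 counts, and the chi-square per gene between libraries, which would be near 1 for sampling noise alone, was 2.48 to 3.81 within groups and 46.9 to 50.5 between groups. After a filter on low counts, 14883 genes were tested with edgeR. At an adjusted p below 0.05, 24.6% of them were lower and 20.8% higher in the DB2313 group. Of all calls, 54.2% were thus falls with TMM scaling, against 36.6% with scaling to library size and 41.8% with upper quartile scaling. With the further demand of a log2 fold change beyond 1 in size, 5.30% were lower and 1.37% higher. Every DB2313 library lay below every control library in 27.5% of the genes tested and above in 25.6%.

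A list of 20 T cell markers, among them Cd3e and Cd8a, took 0.370% to 0.376% of the counts in the control libraries and 0.601% to 0.605% in the DB2313 libraries. A list of 20 macrophage markers took 1.09% to 1.12% and 0.411% to 0.421%, respectively. All 20 T cell markers were higher (median log2 fold change 0.61), among them Trbc2, Trbc1 and Tcf7 (0.54, 0.66 and 0.56), and of the 19 macrophage markers tested 16 were lower and 3 higher (median -1.15). The macrophage marker Timd4 was under the filter, and the dendritic cell marker Siglech was at 0 counts in all libraries. Fewer cells of a type and less RNA per cell cannot be told apart in such bulk samples, and the part of a changed cell mixture in the values below was not tested.

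All 10 genes passed the filter, and together they took 1.01% to 1.05% of all counts in the control libraries and 0.631% to 0.655% in the DB2313 libraries. In the DB2313 group 9 of the 10 genes were lower than without the inhibitor and none was higher, against the 24.6% and 20.8% of all genes tested. The falls were unequal. Cystatin C, legumain and cathepsin C had the largest falls, and cathepsin L was not called. The median log2 fold change of the 10 genes was -0.72, beside 0.019 over all genes tested. In the same 9 genes every DB2313 library lay below every control library, which held for 27.5% of all genes tested. Of the 9, 3 (Cst3, Lgmn and Ctsc) also passed the limit on the fold change, against 5.30% of all genes tested.

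**Figure D1:**
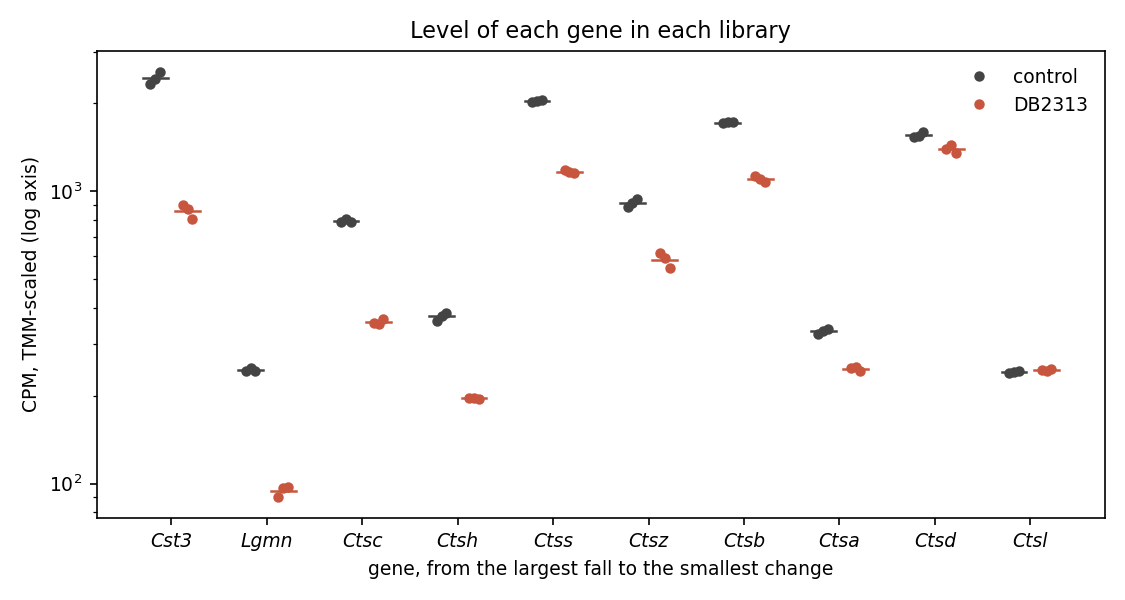
The level of each gene in each library, in CPM on a log axis, with the control libraries in grey, the DB2313 libraries in red and horizontal lines at the group means. The libraries of the groups overlap only in Ctsl, and the gap is widest in Cst3, from 2439 to 858 CPM.

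Cystatin C was the most abundant of the 10 transcripts in the control libraries. Cst3 (ENSMUSG00000027447, chromosome 2, 148871722 to 148875692, minus strand; coordinates here are those of GRCm38) was at 2332, 2425 and 2559.6 CPM in the control libraries and at 900.1, 868 and 805 CPM in the DB2313 libraries. All control libraries were thus far above the DB2313 libraries, although Cst3 also had the widest spread in CPM among the 10 genes within each group. The means were 2439 ± 115 and 858 ± 48.3 CPM (SD, n = 3 each), a log2 fold change of -1.51 (standard error 0.04; Benjamini-Hochberg adjusted p = 2.18e-19, quasi-likelihood test of edgeR). Only 2.49% of all genes tested had a lower log2 fold change.

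Among the proteases, legumain fell most. Lgmn (ENSMUSG00000021190, minus strand of chromosome 12 from 102394084 to 102439813), which cuts after asparagine and helps to mature several cathepsins, was at 242, 249 and 243 CPM in the control libraries and at 90.2, 96.5 and 97.0 CPM in the DB2313 libraries. The groups were far apart beside the spread within them. Lgmn fell by 61.3%, or -1.37 on the log2 scale (edgeR, standard error 0.04, adjusted p = 1.14e-18).

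Cathepsin C, a dipeptidyl peptidase that activates granule serine proteases, followed. Ctsc (ENSMUSG00000030560, plus strand of chromosome 7 from 88278085 to 88310888) was at 786, 805 and 785 CPM and, with DB2313, at 355, 353 and 365 CPM. Replicates lay close together in both groups, and Ctsc differed by -1.15 on the log2 scale (edgeR, standard error 0.03, adjusted p = 8.51e-19). Cathepsin H, an aminopeptidase, went from 373 ± 11.4 to 196 ± 0.667 CPM (SD, n = 3 each), a log2 fold change of -0.93 (standard error 0.03). These 2 exopeptidases and legumain lay in the lowest 6.28% of log2 fold changes over all genes tested.

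Cathepsin S, the endopeptidase best known for cutting the invariant chain in antigen-presenting cells, was the most abundant protease of the group per kilobase, and in the control libraries also in CPM. Ctss (ENSMUSG00000038642, plus strand of chromosome 3 from 95526786 to 95556403) was at 2023, 2037 and 2049 CPM in the control libraries and at 1183, 1161 and 1151 CPM in the DB2313 libraries. The replicates of a group differed little, and Ctss differed by -0.81 on the log2 scale (edgeR, standard error 0.03, adjusted p = 8.55e-17). Cathepsin B (Ctsb) is an endopeptidase that also removes dipeptides from the C-terminal end of proteins. Its transcript was at 1708, 1726 and 1720.4 CPM and then at 1128, 1098 and 1076 CPM. Cathepsin Z (Ctsz), a carboxypeptidase, was at 881, 914 and 943 CPM and then at 614, 591 and 546 CPM. Both had a log2 fold change of -0.64, with standard errors of 0.03 and 0.04, and their groups did not overlap.

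The non-cysteine cathepsins changed less. Cathepsin A (Ctsa), which also shields the lysosomal enzymes neuraminidase and beta-galactosidase, went from 332 ± 6.59 to 247 ± 3.91 CPM (SD, n = 3 each), a log2 fold change of -0.43 (standard error 0.03). Cathepsin D (Ctsd, ENSMUSG00000007891, minus strand of chromosome 7 from 142375911 to 142388038) was at 1539, 1545 and 1593 CPM in the control libraries and at 1395, 1435 and 1355 CPM in the DB2313 libraries. The groups came near each other but did not overlap. The log2 fold change of Ctsd was -0.16 (standard error 0.03, adjusted p = 0.000133, edgeR), and with scaling to library size it was -0.066 and no longer passed (adjusted p = 0.0561).

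Cathepsin L was the exception among the 6 cysteine cathepsins followed here. Ctsl (ENSMUSG00000021477, minus strand of chromosome 13 from 64359337 to 64370890) was at 238, 240.1 and 242 CPM in the control libraries and at 245, 242 and 246 CPM in the DB2313 libraries. The groups met at 242 CPM, and Ctsl differed by 0.027 on the log2 scale (edgeR, standard error 0.033, adjusted p = 0.54). This call depends on the scaling. Ctsl was at 0.12 with scaling to library size and at 0.091 with upper quartile scaling, and both passed (adjusted p = 0.00399 and 0.0299), whereas it was at -0.57 with scaling to the T cell markers (adjusted p = 1.58e-13, all from edgeR).

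Changes relative to another gene of the same library do not depend on the scaling. The level of Ctsl per kilobase relative to that of Ctss was 0.0246, 0.0247 and 0.0248 in the control libraries and 0.0434, 0.0436 and 0.0448 in the DB2313 libraries. The ratio of Ctsd to Ctss went from 0.442 ± 0.00595 to 0.692 ± 0.0189, and that of Lgmn to Ctsb from 0.371 ± 0.00458 to 0.224 ± 0.0140 (SD, n = 3 each). In all 3 ratios the groups stood apart, so the make-up of the protease transcripts differed between them and not only their sum. The ratios restate the unequal fold changes given above, and they were not tested.

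The inhibitor was compared with its target proteases in the same way. The level of Cst3 per kilobase, divided by the summed level of the 6 cysteine cathepsins and Lgmn, was 0.672, 0.688 and 0.720 in the control libraries and 0.427, 0.421 and 0.400 in the DB2313 libraries. The inhibitor transcript was lower relative to these proteases in every DB2313 library than in any control library. The means were 0.693 ± 0.0241 and 0.416 ± 0.0142 (SD, n = 3 each), a log2 difference of -0.74, for which no test was made because the genes were chosen with results known. The protein levels and activities were not measured.

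Levels of different genes were compared per kilobase of the gene length that the table gives. In the control libraries the order was Cst3 (1926 ± 90.5 CPM per kilobase), Ctss (1500 ± 9.64), Ctsd (663 ± 12.6), Ctsz (633 ± 21.5), Ctsb (284 ± 1.49), Ctsc (136 ± 1.91), Lgmn (105 ± 1.70), Ctsh (82.9 ± 2.53), Ctsa (70.5 ± 1.40) and Ctsl (37.0 ± 0.328; SD, n = 3 each). The nearest neighbours relative to their spread were Ctsd (654.5, 657 and 678) and Ctsz (611, 634 and 654.2), where Ctsd was the higher in each control library and the ranges came close without overlapping. In the DB2313 libraries Ctss (858 ± 11.8) was above Cst3 (678 ± 38.2), and Lgmn (40.7 ± 1.64) had dropped to the ninth place, between Ctsh (43.6 ± 0.148) and Ctsl (37.7 ± 0.342; SD, n = 3 each). Among all genes tested, the rank of Cst3 was 13 without and 52 with DB2313, and that of Ctsd 66 and 60.

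The order depends on the length used, because the length of a gene in the table can exceed that of its main transcript, for example 5808 against 2493 bases in Ctsc and 1266 against 860 in Cst3. With the lengths of the principal transcripts in GENCODE M21, chosen after the data were seen, Cst3 stayed above Ctss in the DB2313 group, at 998 ± 56.2 against 860 ± 11.8 CPM per kilobase (SD, n = 3 each). Cst3 made up 35.4% ± 0.762 of the summed level of the 10 genes in the control group and 22.9% ± 0.626 with DB2313, or 41.3% ± 0.814 and 27.9% ± 0.753 with transcript lengths (SD, n = 3 each). The share of Ctsd was 12.2% ± 0.124 and 20.1% ± 0.430, and that of Ctss 27.6% ± 0.523 and 29.1% ± 0.545 (SD, n = 3 each). The share of Cst3 was thus lower in the DB2313 group, and that of Ctsd higher, under either length.

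**Figure D2:**
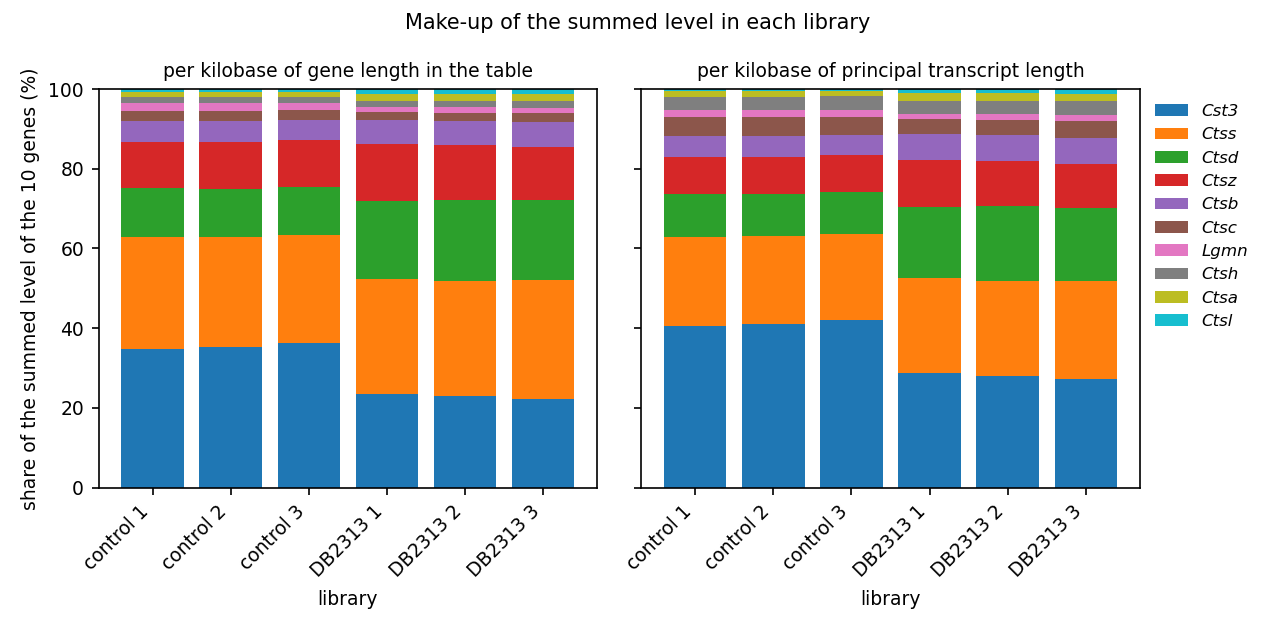
The share of each gene in the summed level of the 10 genes (%, vertical axis) in each of the 6 libraries, per kilobase of the gene length in the table (left) or of the principal transcript (right). The Cst3 part is smaller in every DB2313 library than in any control library, and the Ctsd part is larger.

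The direction of the 9 falls was kept when libraries were scaled to their size, to the upper quartile or to the T cell markers. The last scaling moved all genes by a median of -0.60, and with it Cst3 was at -2.11, Ctsd at -0.76 and Ctsl at -0.57. A change of scaling moves all genes by nearly the same amount, so it bears on the direction of a gene and not on the differences among genes.

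**Figure D3:**
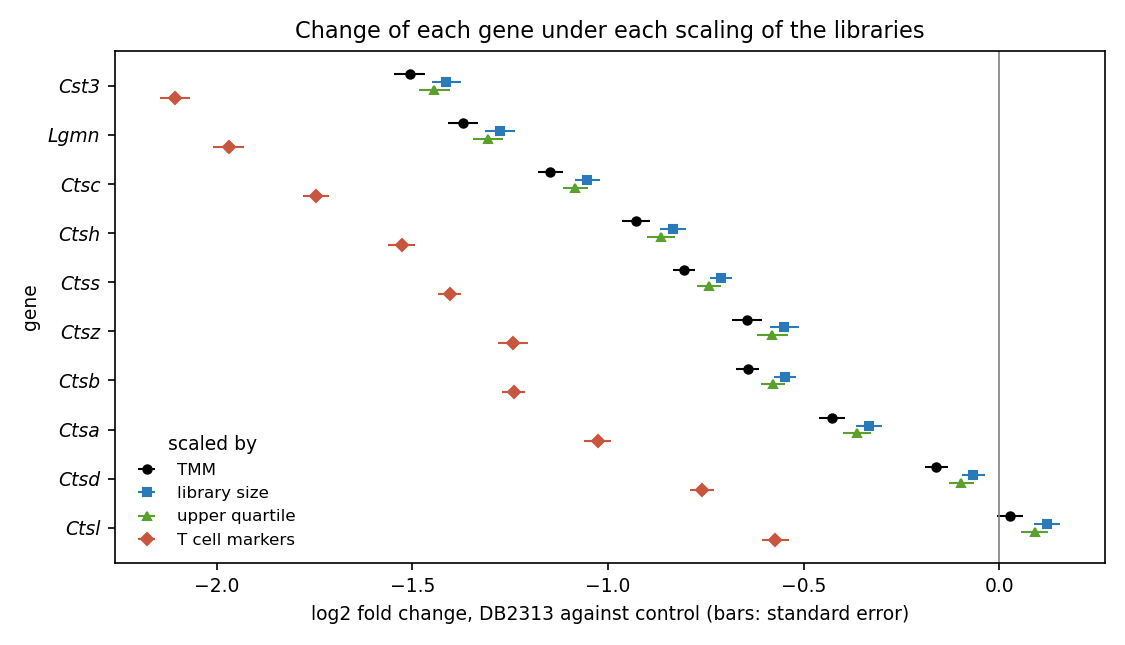
The log2 fold change of each gene (horizontal axis, DB2313 against control) with its standard error under TMM, library size, upper quartile and T cell marker scaling. Each scaling shifts all genes nearly alike, from Cst3 (-1.51 with TMM) to Ctsl (0.027 with TMM), and of the 10 genes only Ctsl changed sign among the 4 scalings.

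The promoters of the genes were read from RefSeq windows of GRCm38.p6 that begin 250 bases before a gene's start site, and 8 of the 10 genes had a window (10 windows in all). Because DB2313 targets Spi1, the windows were searched on both strands for GAGGAA, a core of the sites that Spi1 is known to bind, and for the E-box CACGTG, which reads the same on both strands and lies in the sites of the lysosomal regulators Tfeb and Tfe3. GAGGAA was found in 3 of the 10 windows, those of Cst3, Ctss and Ctsc, against 28.3% of all 32851 windows. CACGTG was found in 4 of the 10, in windows of Ctsa, Ctsd, Ctsl and Lgmn, against 7.15% of all windows, and its longer form TCACGTGA in 2 (Ctsa and Ctsd), against 0.974%. The windows of Ctsa, Ctsl and Lgmn that held CACGTG lay wholly inside the span that the table gives for the gene. The TCACGTGA matches of Ctsa and Ctsd also lay inside the gene. Only Ctsd held a CACGTG before the start of its gene in the table. The stretches below, 5′ to 3′ on the strand of the gene, are those of the 3 genes with GAGGAA and of Ctsd, with GAGGAA, its reverse TTCCTC and CACGTG in capitals. They end where the gene begins in the table, which for Cst3 and Ctsd lies 180 and 211 bases before the RefSeq start site.
Ctss, chr3:95526536-95526785, plus strand: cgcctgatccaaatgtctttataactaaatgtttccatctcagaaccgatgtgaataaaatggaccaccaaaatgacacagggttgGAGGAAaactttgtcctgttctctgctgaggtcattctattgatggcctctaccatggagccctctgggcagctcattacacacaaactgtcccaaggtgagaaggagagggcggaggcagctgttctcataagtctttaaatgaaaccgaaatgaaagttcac
Ctsc, chr7:88277835-88278084, plus strand: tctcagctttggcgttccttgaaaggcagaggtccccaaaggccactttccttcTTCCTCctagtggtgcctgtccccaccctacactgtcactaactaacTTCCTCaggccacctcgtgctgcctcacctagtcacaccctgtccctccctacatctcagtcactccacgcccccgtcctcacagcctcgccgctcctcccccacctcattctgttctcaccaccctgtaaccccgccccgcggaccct
Cst3, chr2:148875693-148875762, minus strand: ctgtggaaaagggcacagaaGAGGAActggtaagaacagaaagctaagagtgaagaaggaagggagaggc
Ctsd, chr7:142388039-142388077, minus strand: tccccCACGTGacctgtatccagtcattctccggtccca
Ctsc held GAGGAA on the minus strand at 196 and 149 bases before its start site, Ctss on the plus strand at 164 bases and again on the minus strand at the start site itself, and Cst3 at 230 bases. Ctsd held a second CACGTG at 98 bases, outside the stretch shown. These are matches of letters and not measured binding sites.

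The remaining cathepsin genes did not follow the same direction. Of 15, 9 were at 0 counts in all libraries, and of the 6 tested 3 were higher and none lower. Ctsw, a cathepsin of cytotoxic lymphocytes, went from 104 ± 5.27 to 149 ± 2.95 CPM (log2 fold change 0.52, standard error 0.04, adjusted p = 3.00e-10, edgeR), but was at -0.079 with scaling to the T cell markers. Ctsg, a serine protease of myeloid granules, went from 108 ± 6.42 to 204 ± 5.11 CPM (SD, n = 3 each), a log2 fold change of 0.92 (standard error 0.04). Ctsf, named after its values were seen because it was the third, was at 2.08 ± 0.305 and 3.25 ± 0.135 CPM. Ctso, at 0.12 on the log2 scale (standard error 0.07), did not pass, although it did with library size and upper quartile scaling (0.21 and 0.18), and it was at -0.48 with scaling to the T cell markers.

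Among 19 other cystatin and stefin genes, 9 were tested and 8 of them were lower. Cstb, which encodes the inhibitor stefin B of the cytosol, went from 222 ± 5.88 to 112 ± 8.04 CPM (log2 fold change -0.98, standard error 0.04, adjusted p = 7.37e-15, edgeR). The other 7 belong to the stefin A cluster of similar genes, where reads could be divided among copies, and 2010005H15Rik of this cluster was at -4.52 on the log2 scale (standard error 0.20). Cst7, the cystatin F of lymphocytes and myeloid cells, was at 30.3 ± 0.390 and 30.8 ± 2.73 CPM and was not called. Of 5 further inhibitors, Serpina3g and Serpinb6a were lower (log2 fold change -0.12 and -0.43) and Serpinb1a was not called (0.019). The call of Serpina3g did not pass with library size or upper quartile scaling. Ctla2a, named after its values were seen, was higher, at 12.2 ± 0.391 and 19.5 ± 0.322 CPM, but shares similar sequence with its neighbour Ctla2b.

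All 7 lysosomal peptidases other than cathepsins were lower, with a median log2 fold change of -0.94. Scpep1, a serine carboxypeptidase, was at -1.10 on the log2 scale (standard error 0.04), Napsa, an aspartic protease related to cathepsin D, at -0.71 (standard error 0.04), and Tpp1, a tripeptidyl peptidase, at -0.19 (standard error 0.04), which did not pass with scaling to library size. Of 9 genes that tag or sort enzymes to the lysosome, 6 were lower and 1 higher. M6pr, the cation-dependent mannose 6-phosphate receptor, was at -0.35 (standard error 0.03), Nagpa, which uncovers the mannose 6-phosphate tag, at -0.29 (standard error 0.06), and the adaptor Gga1 at -0.21 (standard error 0.04). The higher gene was Gnptg, named after its values were seen, at 30.2 ± 2.24 and 41.2 ± 1.66 CPM (SD, n = 3 each).

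Of 5 partners and precursors that cathepsins act on, all were called lower, but 3 of them (Neu1, Glb1 and Galns) by little, at -0.17, -0.15 and -0.17. The number called was 2 with library size scaling, 3 with upper quartile scaling or DESeq2, and 3 without control replicate 1 or 3 or without DB2313 replicate 1 or 2. Psap, the precursor of the saposins and a substrate of cathepsin D, was at 7225 ± 20.6 and 3583 ± 84.6 CPM (log2 fold change -1.01, standard error 0.03, adjusted p = 3.55e-19, edgeR). Grn, the precursor of the granulins, was at -0.80 on the log2 scale (standard error 0.04). Neu1 is the neuraminidase held by cathepsin A (standard error 0.04), and Glb1, the beta-galactosidase of the same complex, and Galns were named after their values were seen. Of the 7 serine proteases that cathepsin C can activate, 4 were higher and 2 lower, while Ctsc itself fell. Elane and Prtn3, proteases of neutrophil granules, were at 1.13 and 0.94 (standard error 0.04 each), and Ctsg belongs to this list too. The 2 lower genes were Cma1 (-1.59) and Gzmc (-1.16), and the remaining higher gene was Gzmb (0.37). Cma1, Gzmc and Gzmb were named after their values were seen.

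The invariant chain, which cathepsin S cuts, and the class II molecules were among the largest falls. All 8 genes of this list were lower, with a median log2 fold change of -1.56. Cd74, the invariant chain, was at -1.74 on the log2 scale, H2-Eb1 at -2.19 and H2-Aa at -1.66 (standard errors 0.03, 0.04 and 0.03), beside -0.81 in Ctss. Of 5 genes of endosomal Toll-like receptors and their chaperone, 4 were lower. Tlr13 was at -1.59 (standard error 0.06) and the chaperone Unc93b1 at -0.83 (standard error 0.03), whereas Tlr7 was at -0.094 (standard error 0.064) and was not called. All 7 transcription factors listed for lysosomal, class II or myeloid genes were lower. Spi1, the target of DB2313, was at 286 ± 6.75 and 156 ± 6.20 CPM (SD, n = 3 each), a log2 fold change of -0.88 (standard error 0.04), Irf8 was at -1.08 and the class II activator Ciita at -2.45.

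**Figure D4:**
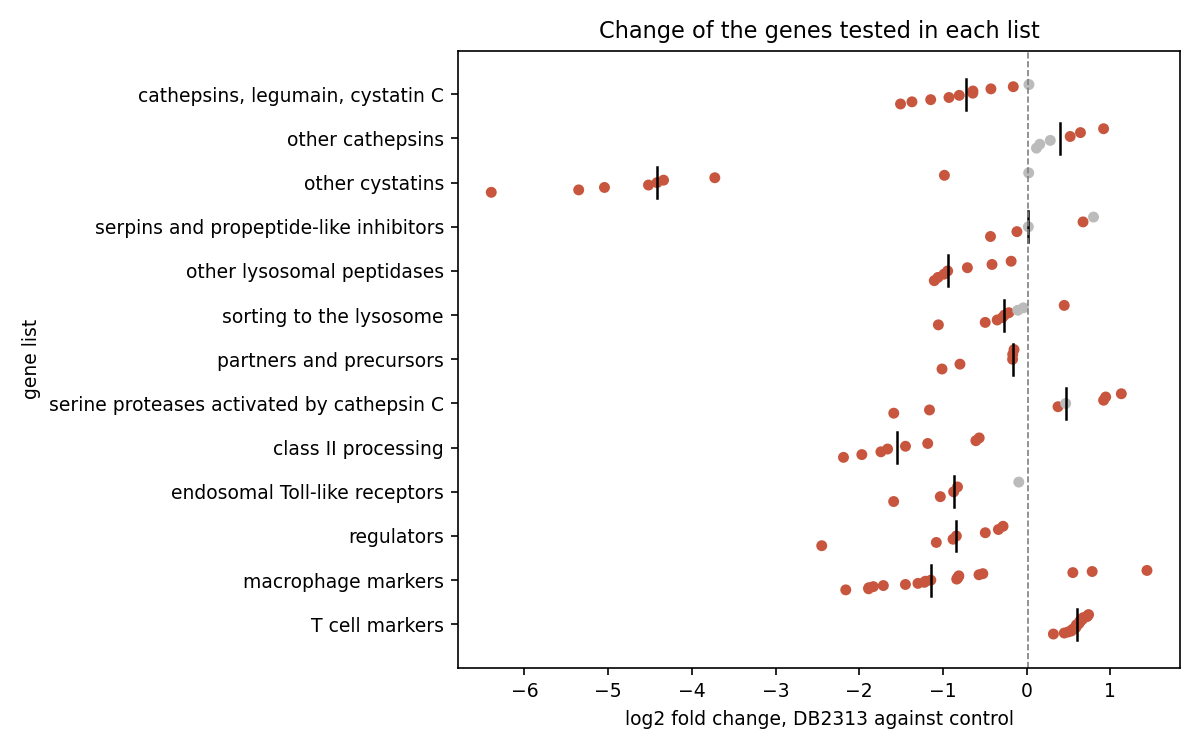
The log2 fold change (horizontal axis, DB2313 against control) of each gene tested in each list (rows). Red points passed an adjusted p of 0.05, grey points did not, black bars mark list medians and the dashed line marks the median of all genes tested (0.019). The 10 genes spread from -1.51 to 0.027, within the range of the macrophage markers (-2.16 to 1.44) and below the T cell markers (0.32 to 0.74).

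Most but not all macrophage markers were lower, as these genes were. Lyz2, the lysozyme of macrophages and neutrophils, was at -1.89 on the log2 scale (standard error 0.03), C1qb at -0.81 and C1qc at -0.83. C1qa, the remaining C1q gene, named after its values were seen, fell further, to -1.71 (standard error 0.04). The 3 macrophage markers that were higher, named after their values were seen, were Ms4a7, Marco and Trem2 (1.44, 0.78 and 0.55). Relative to Lyz2 of the same library, per kilobase, Cst3 went from 0.329 ± 0.0117 to 0.428 ± 0.0176, Ctss from 0.256 ± 0.00356 to 0.542 ± 0.00680 and Ctsl from 0.00633 ± 7.89e-05 to 0.0238 ± 0.000601 (SD, n = 3 each). The outcome depends on the marker. Relative to C1qb, a reference chosen after the data were seen, Cst3 went from 3.28 ± 0.0922 to 2.02 ± 0.0515, Ctss was at 2.55 ± 0.0489 and 2.56 ± 0.0670, and Ctsl went from 0.0630 ± 0.00110 to 0.113 ± 0.00475 (SD, n = 3 each). Against C1qc the log2 differences were -0.68, 0.020 and 0.85. Cst3 was thus higher relative to Lyz2 but lower relative to C1qb and C1qc. Ctss was higher relative to Lyz2 but within the spread of the libraries relative to C1qb and C1qc. Ctsl was higher relative to Lyz2, C1qb and C1qc. These outcomes do not cover C1qa, which fell more (-1.71) than Cst3 (-1.51) and Ctss (-0.81) and to which no ratio was formed. The part of these markers in the falls of the cathepsin genes was not tested. Neutrophil markers (9 of 10 lower, 0.163% to 0.164% of control counts and 0.0437% to 0.0472% of DB2313 counts) and dendritic cell markers (7 of 9 tested lower, 0.164% to 0.167% and 0.148% to 0.153%) were lower in the same libraries. The most abundant of them were S100a9 (-1.72), S100a8 (-2.49) and Ngp (-1.70), and Ccr7 (-0.10), Fscn1 (-0.20) and Batf3 (-0.52). Ccr7 did not pass with library size or upper quartile scaling. The dendritic cell markers ranged from -3.54 in Cd209a to 0.36 in Flt3, which was higher. Among the neutrophil markers Retnlg was higher (1.39), at 0.294 and 0.775 CPM. Cd209a, Flt3 and Retnlg were named after their values were seen. None of the 8 B cell markers was lower (1 without DB2313 replicate 2) and 5 were higher, among them Cd79b, Cd79a and Blk (0.46, 0.63 and 0.86). Of 6 mast cell and basophil markers, 2 were lower (1 without control replicate 1 or 3 or DB2313 replicate 1, and with library size scaling, upper quartile scaling or DESeq2) and 3 higher, with Cpa3 at -1.31, Mcpt8 at 0.52 and Fcer1a at 0.50. Cd79b, Mcpt8 and Fcer1a were below 0 with scaling to the T cell markers.

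The genes whose profile over the 6 libraries lay nearest to that of Cst3, out of 2397 protein-coding genes with at least 100 CPM in the control group, were Gyg, Pygl, S100a11, C3 and H2-DMb1. Nearness was the mean absolute difference of log2 CPM after each gene was centred on its own mean, and it ran from 0.051 in Gyg to 0.060 in H2-DMb1. Their log2 fold changes lay between -1.61 in Gyg, which encodes glycogenin, and -1.45 in both Pygl, a glycogen phosphorylase, and H2-DMb1. Because the libraries differed mainly between the groups, this choice largely fixed these values near the -1.51 of Cst3. The limit on CPM was set in the control group, where Cst3 was high. Pygl (75.4 CPM) and H2-DMb1 (58.6 CPM) were under it in the DB2313 group.

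The spans of 9 annotated genes overlap those of Ctsa, Ctsb, Ctsc, Ctsd, Ctsl, Ctss or Ctsz. The counting is not stated to use strand, and how it treated a read from an overlap is not known. The overlaps given are of whole gene spans and not of exons. The largest counts were those of Nelfcd, which shares 10 bases with Ctsz and had 662 to 908 counts in a library, and of Fdft1, which shares 774 bases with Ctsb and had 518 to 727. Pltp, which shares 1515 bases with Ctsa, had 330 to 707 counts and a log2 fold change of 0.85 (standard error 0.08), opposite to that of Ctsa. Fdft1 was at -0.27 (standard error 0.07), and Nelfcd, at 0.14 (standard error 0.06), did not pass, although it did with library size and upper quartile scaling. Neurl2 and Hmgb1-ps5 had at most 35 counts and were not called, and the other 4 genes had at most 17 counts in any library.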

How the data were processed

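The authors deposited raw read counts per gene, without normalization, for 6 RNA-seq libraries. GEO's processing notes list CASAVA 1.8, HISAT2 2.0.5 and featureCounts 1.5.0-p3, whereas the paper's methods name LifeScope for alignment and counting. The build, annotation and strandedness are not given in the sources used here. Of the 54495 genes shared with GENCODE M21, 98.3% had its GRCm38 coordinates, including all 10 genes described.

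Columns were matched to samples by label. The test was the quasi-likelihood F-test of edgeR 4.0.16 in R 4.3.3, on counts filtered by filterByExpr and scaled by TMM, with Benjamini-Hochberg adjustment over all genes and a threshold of 0.05, after a test of the scripts on simulated data. The standard error of a log2 fold change is its size divided by the root of F. CPM values were scaled by TMM. The detection floor was 3 counts, 1.81e-05% of the library with the fewest counts, and covers counting error only. The genes named in each list are the 3 tested ones with the highest mean level per kilobase, except where stated, together with the genes overlapping a member and the 5 nearest to Cst3 (pseudocount 0.5). The members and the lists were chosen with earlier results of these data known. Alternatives were DESeq2 1.42.0, other scalings and filters, a fold change threshold, a replicate block, and leaving out each sample.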

Additional observations from a re-analysis of the deposited data

How the results depend on the processing

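Of 130 comparisons of the log2 fold changes of the 10 genes with an alternative, 126 left both the sign and the call as they were. The exceptions were Ctsd with library size scaling and Ctsl with library size, upper quartile and T cell marker scaling (-0.57). The number of lower genes was 9 under each alternative but 3 with the fold change threshold, 8 with library size scaling and 10 with T cell marker scaling. The number of higher genes was 0, but 1 (Ctsl) with library size and upper quartile scaling. The log2 difference of Cst3 per cysteine protease was -0.75 on counts, -0.76 without Lgmn, -0.71 with transcript lengths and between -0.76 and -0.71 with each sample left out.

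Over all genes, library size scaling gave 2852 lower and 4931 higher genes, T cell marker scaling 11594 and 158, the fold change threshold 789 and 204, and the other alternatives between 3102 and 3693 lower and between 2386 and 4319 higher. Same-numbered samples of the groups did not deviate together (correlations 0.0025, -0.011 and -0.0051), so the numbers were not taken as pairs. With a replicate block 9 of the 10 genes were lower and 0 higher, and 3525 lower and 2912 higher genes were called over all.

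With T cell marker scaling the sign turned in Ctsw (-0.079), Ctso (-0.48), Cst7 (-0.58), Serpinb1a (-0.58), Trbc2 (-0.060), Tcf7 (-0.043), Cd79b (-0.13), Mcpt8 (-0.074), Fcer1a (-0.10) and Nelfcd (-0.46), since this scaling lowers all genes. Tlr7 was at 0.00033 with library size scaling. With each sample left out, Cst7 ranged from -0.052 to 0.066 and Serpinb1a from -0.0099 to 0.046, both lowest without DB2313 replicate 1. Of 476 counts in the other lists, 58 moved by more than 1.5 times. They include the partners and precursors (5 lower, 2 to 3 under 7 alternatives and 1 with the fold change threshold), the other cathepsins (3 higher, 5 with library size scaling) and the other cystatins (8 lower, 3 with at least 10 counts in every sample).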
